A study of Mus musculus with 6 samples.

Results

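The heat shock and chaperone genes described here are the 91 of 27998 genes in the deposited gene lists whose symbols begin with Hsp followed by a digit or a letter from a to h, with Dnaja, Dnajb or Dnajc, or with Cct2 to Cct8, together with Bag1 to Bag6, Stip1 and Ahsa1. The rule uses the symbol alone, and it was written with earlier results of these data known. They were measured by droplet single-cell RNA sequencing in invariant natural killer T (iNKT) cells taken from 3 organs, the liver, spleen and lymph node (2 libraries each), to ask how these T cells differ between the organs they live in. All mice were wild-type C57BL/6 at 5 weeks of age with no treatment named, and every library was depleted of CD8+ and B220+ cells and sorted for TCR-β and CD1d tetramer binding. The labels give neither the sex nor the number of mice behind a library, and the study's methods call the libraries of an organ biological repeats. The p-values measure the spread between these libraries. The labels name the molecule as nuclear RNA.

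Chaperones bind proteins that are not yet folded or have lost their fold. HSP70 proteins do so in cycles of ATP binding and hydrolysis that J-domain proteins start and nucleotide exchange factors end, HSP90 proteins finish the folding of kinases and receptors, and the CCT chaperonin folds actin and tubulin inside its chamber. Some genes, Hspa8 and Hsp90ab1 among them, are made in all cells, whereas Hspa1a and Hspa1b are switched on by the heat shock factor HSF1 when unfolded protein builds up, and in sorted lymphocytes they are also known to respond to warm enzymatic digestion and handling.

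Hspa1a and Hspa1b encode nearly the same protein from neighbouring genes on the minus strand (GENCODE vM21, GRCm38: chr17:34969190-34972156 and chr17:34956436-34959238), so the bases before their start sites are shown first. The windows are RefSeq's (GRCm38.p6) and end at the base before the start site, at chr17:34972157-34972406 for Hspa1a and chr17:34959239-34959488 for Hspa1b, both on the minus strand. Capitals mark the match to a heat shock element of 2 units, searched as GAANNTTC or TTCNNGAA on both strands.
Hspa1a: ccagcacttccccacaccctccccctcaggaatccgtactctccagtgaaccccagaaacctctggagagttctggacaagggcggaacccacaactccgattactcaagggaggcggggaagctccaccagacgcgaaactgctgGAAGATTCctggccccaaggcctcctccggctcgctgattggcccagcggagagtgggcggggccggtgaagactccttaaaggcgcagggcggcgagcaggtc
Hspa1b: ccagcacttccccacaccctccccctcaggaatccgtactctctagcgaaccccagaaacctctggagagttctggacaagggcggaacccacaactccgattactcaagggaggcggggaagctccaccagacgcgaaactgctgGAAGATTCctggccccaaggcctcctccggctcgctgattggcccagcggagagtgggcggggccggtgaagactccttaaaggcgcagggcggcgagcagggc
The windows were identical at 247 of 250 bases, and each held 1 match, GAAGATTC, at 104 to 97 bases before the start. Such a match stood in 12.8% of the 32851 promoter windows of this length, so its presence is a description and not a site. RefSeq gave windows for 75 of the 91 members, 95 windows in all, and 19 of these (20%) held a match.

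Among the other members, stretches that hold a match are given for those described next, with 30 bases each, again with the match in capitals. The stretch between Hspe1 and Hspd1, which encode the co-chaperonin and the chaperonin of mitochondria and lie head to head, holds 3 overlapping matches and a 3-unit element (GAANNTTC followed by NNGAA, or TTCNNGAA followed by NNTTC), which occurred in 0.466% of all windows and in 3 members (Hspe1, Hspd1 and Dnajb6). Hsph1 and Dnaja1 are inducible members with 2-unit matches, and Cct2 is the chaperonin gene that differed most between organs. For Dnaja1 the match stood in window 1 alone, and windows 2 and 3, at its other start sites, held none. Hspa5, Hsp90b1 and Dnajc3, which act in the endoplasmic reticulum, were the 3 members with an endoplasmic reticulum stress element (letters CCAAT, 9 of any base, CCACG, or the reverse complement), which occurred in 0.113% of all windows.
Hspe1, chr1:55088053-55088082, plus strand: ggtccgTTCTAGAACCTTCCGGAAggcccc
Dnajb6, chr5:29735844-29735873, plus strand: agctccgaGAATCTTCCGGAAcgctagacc
Hsph1, chr5:149636351-149636380, minus strand: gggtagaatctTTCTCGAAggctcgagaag
Dnaja1, chr4:40722333-40722362, plus strand: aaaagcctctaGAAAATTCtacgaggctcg
Cct2, chr10:117063399-117063428, minus strand: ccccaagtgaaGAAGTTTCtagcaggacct
Hspa5, chr2:34772020-34772049, plus strand: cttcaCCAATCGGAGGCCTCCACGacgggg
Hsp90b1, chr10:86705632-86705661, minus strand: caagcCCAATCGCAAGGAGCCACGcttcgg
Dnajc3, chr14:118937822-118937851, plus strand: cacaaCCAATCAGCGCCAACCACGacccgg
The windows of Dnajb1 and Dnajb9 held neither a 2-unit heat shock element nor the stress element in these letters. Hspa8, Hsp90aa1 and Hsp90ab1 are named only.

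After the limits of the study on genes and mitochondrial reads, 16532 of 16587 barcodes were kept as cells, 2638 to 2861 per library. More cells were thus kept than the study states, and its rule against doublets, which removes cells with RNA of both Xist and a Y-linked gene, was not applied. In these files 0 barcodes held both. Without ribosomal and haemoglobin genes the libraries held 3580603 to 7079443 unique molecular identifiers (UMIs, 1 per captured molecule). Counted over all genes, ribosomal ones included, the median cell held 2880 and 3592 in the liver libraries against 1470 to 1730.5 in the others. The 4 T cell markers of the list that were in the files (Cd3d, Cd3e, Cd3g and Zbtb16) were detected in every library, at 4415 to 5692 CPM in sum (UMIs of a gene or list per 1000000 UMIs of the library or class), while the hepatocyte list stood at 1.68 to 4.66 and the B cell list at 2.51 to 17.1. Markers of myeloid cells stood at no more than 150 CPM, and the red cell list at 555 and 865 in liver against at most 0.279 elsewhere. Xist was at 1403 to 1636 CPM in liver and spleen and at 0 in both lymph node libraries, whereas the Y-linked Ddx3y showed the reverse (0 against 182 and 206), so organ and sex of the mice cannot be told apart in any comparison with lymph node. Markers of the iNKT1 subset stood at 8674 to 10348 CPM in liver and spleen and at 2316 and 2346 in lymph node, and 148 barcodes occurred in more than 1 library.

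Of the 91 members, 10 had no UMI in any cell. These were Hspg2, the gene of the matrix protein perlecan, which the symbol rule takes in though it is no chaperone, the testis-enriched Hspa1l, the small heat shock genes Hspb2, Hspb3 and Hspb8, and the J-domain genes Dnajb7, Dnajb8, Dnajc22, Dnajc5b and Dnajc5g. A further 11 had between 1 and 39 UMIs over all libraries and were too low to test, among them Bag3 with 29 and Hspb1 with 14, both of which are classical inducible genes. The remaining 70 entered the comparisons between organs, where 35 were called in at least 1 comparison, 6 in all 3 and 35 in none. Of all 10178 genes tested, 48.3% were called in at least 1, 4.07% in all 3 and 51.7% in none, so the count called in at least 1 was near the background. That 70 passed says only that they were expressed enough in some library.

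Members took 1.28 and 1.36% of the UMIs in the liver libraries, 1.03 and 0.952% in spleen, against 1.10 and 1.10% in lymph node, so that the liver libraries were the highest and the organs did not overlap. Because a UMI stands for 1 captured 3′ end, whatever the length of its transcript, these shares compare molecules between genes without scaling by length. The HSP70 family supplied 28.1 ± 0.874% (SD, n = 2) of the member UMIs in liver, 22.7 ± 1.65% in spleen, against 27.4 ± 0.449% in lymph node. HSP90 genes supplied 20.9 ± 0.362% in liver against 16.6 ± 0.404% and 16.5 ± 0.817%. The 45 J-domain genes supplied 27.0 ± 0.911% in liver, 34.9 ± 0.920% in spleen, with 33.7 ± 1.77% in lymph node. As a share of all UMIs of a library, however, J-domain genes took 0.338 to 0.385% over the 6 libraries, with organ means of 0.356, 0.345 and 0.372% in this order. The CCT chaperonin made up 11.4 to 12.9% of member UMIs in the organ means, BAG proteins 2.41 to 3.33% and small heat shock proteins, counted by Hspb symbol, 0.152 to 0.249%. By compartment, endoplasmic reticulum members took 10.3 ± 0.547% in liver, 14.6 ± 0.258% in spleen, against 13.8 ± 0.122% in lymph node (0.137, 0.144 and 0.152% of all UMIs), and mitochondrial members 9.24 to 11.3%. No test was made of these sums.

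**Figure D1:**
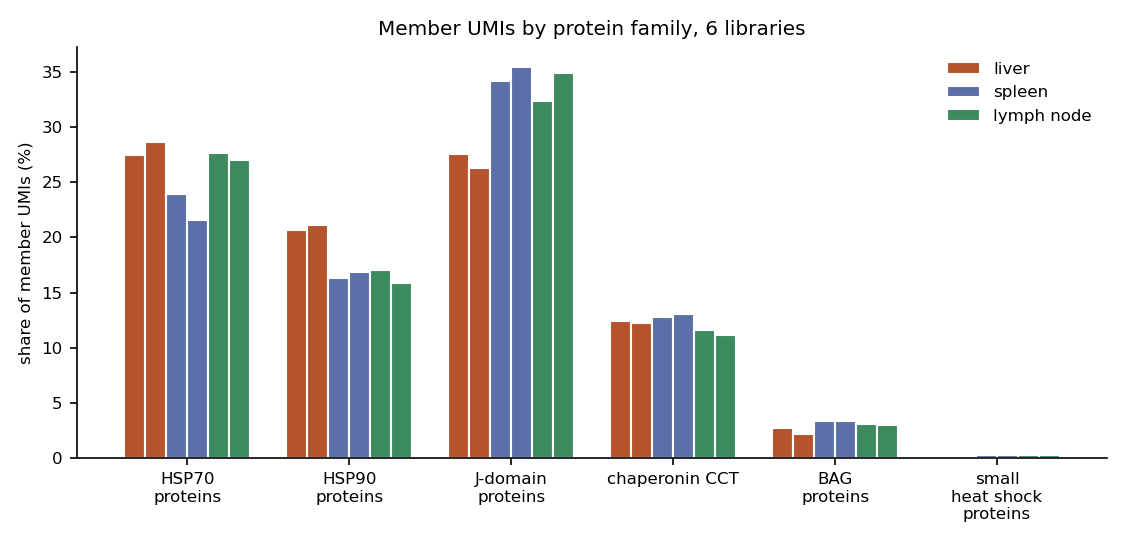
Share of all chaperone UMIs (%, y axis) taken by each protein family (x axis), 1 bar per library, 2 per organ. Liver libraries have the highest HSP90 share and the lowest J-domain share, and small heat shock proteins are near 0 in all 6.

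The inducible Hspa1a and Hspa1b, set against their constitutive relatives, gave the largest differences of any members in the comparisons with spleen. In liver the libraries held 230 and 235 UMIs of Hspa1a, with 2 and 1 in spleen, against 170 and 172 in lymph node, which is 32.5 and 38.7, 0.520 and 0.279, and 45.9 and 47.5 CPM. Hspa1b had 289 and 255 UMIs in liver, 7 and 0 in spleen, with 143 and 92 in lymph node, or 40.8 and 42.0, 1.82 and 0, and 38.6 and 25.4 CPM. Both genes were thus readily detected in all liver and lymph node libraries and nearly missing from both spleen libraries.

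The ratio of Hspa1a between liver and spleen was 87.6 (95% interval 29.8 to 426, counting error only), and between lymph node and spleen 116 (39.2 to 563). For Hspa1b these ratios were 43.9 (21.2 to 110) and 34.0 (16.3 to 85.6). Since the second spleen library had no Hspa1b UMI, set against that library alone the ratio was at least 49.4 in liver and at least 38.2 in lymph node, taking 3 counts (0.838 CPM) as the limit of a count of 0. On the log2 scale of the fitted model Hspa1a was 6.30 higher in liver than in spleen (SE 0.38, edgeR adjusted p = 8.31e-14), and its change in spleen over lymph node was -6.74 (SE 0.37, edgeR adjusted p = 7.03e-16). For Hspa1b the log2 changes were 5.35 (SE 0.43, edgeR adjusted p = 2.26e-07) in liver over spleen and -5.03 (SE 0.46, edgeR adjusted p = 4.06e-07) when spleen is set over lymph node. These calls held under every alternative tried, and within iNKT1-marker cells alone the log2 changes were 6.04 and -6.38 for Hspa1a and 5.13 and -4.44 for Hspa1b.

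Between liver and lymph node the differences of the pair were smaller. Hspa1a was lower in liver by a log2 change of -0.45 (SE 0.16, edgeR adjusted p = 0.0270), a call that was lost without liver replicate 1, where the adjusted p was 0.261, without either lymph node library, within iNKT1-marker cells, without the 2% of cells with the most UMIs and with DESeq2. Hspa1b was at 0.31 (SE 0.23, edgeR adjusted p = 0.300) over all cells and at 0.69 (edgeR adjusted p = 0.0465) within iNKT1-marker cells. Of the UMIs of the pair, Hspa1b held 55.7 and 52.0% in liver and 45.7 and 34.8% in lymph node. The transcripts share 45.1% of their 110-base windows (counted in Hspa1a) but none of the 391 windows in the last 500 bases, where 3′ libraries read, and no window is shared with Hspa8.

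The constitutive cognate Hspa8 stood at 2721 and 2924 CPM in liver, 1553 and 1215 in spleen, against 2009 and 1961 in lymph node. Both Hspa1 genes together gave 2.69 and 2.76 UMIs per 100 of Hspa8 in liver, 0.151 and 0.0230 in spleen, against 4.20 and 3.72 in lymph node. Against spleen the difference was thus steeper for the inducible pair than for their constitutive relative, which was still the lowest in spleen.

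**Figure D2:**
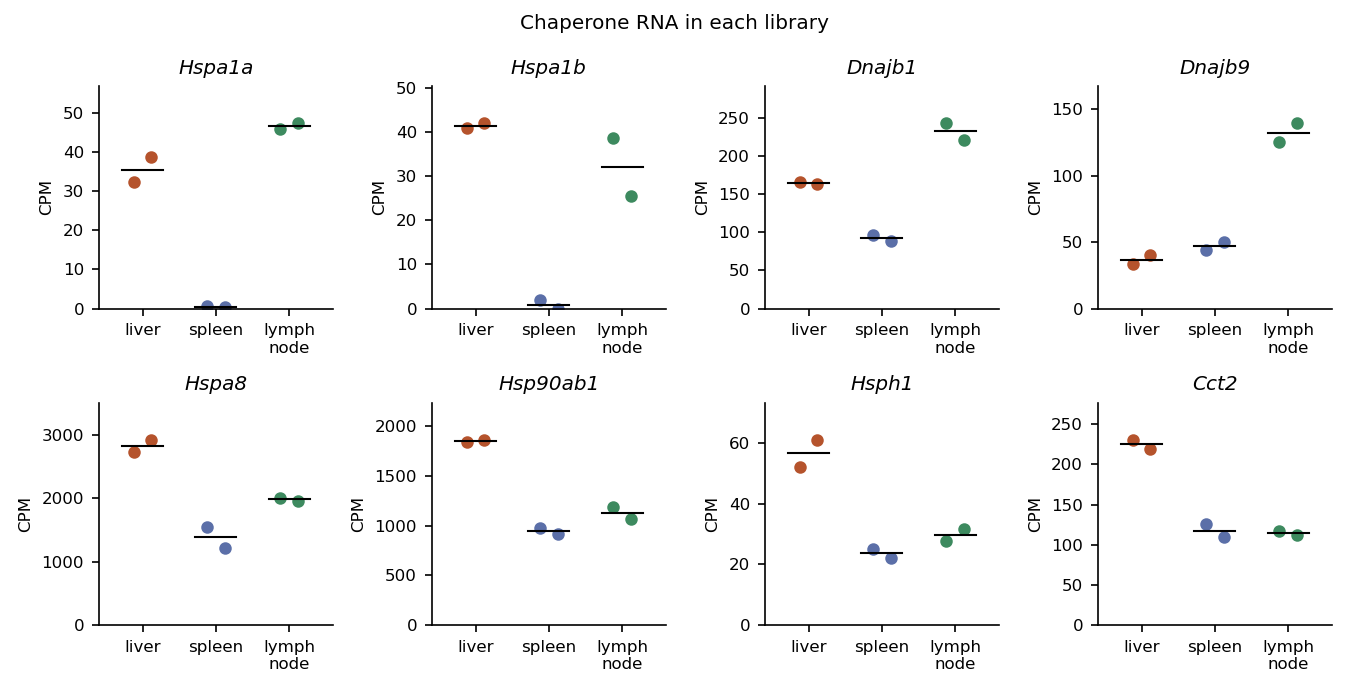
CPM (y axis, a separate linear scale from 0 for each gene) of 8 chaperone genes in the 2 libraries of each organ (x axis), with points for libraries and a line for the mean. Hspa1a and Hspa1b lie near 0 in spleen only, Dnajb9 is highest in lymph node, and Hsp90ab1, Hsph1 and Cct2 are highest in liver.

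Across all 70 members tested between liver and spleen, 13 were called higher and 7 lower in liver, at a Benjamini-Hochberg adjusted p under 0.05. Of all 10178 genes tested, 25.7% were called (12.7% higher, 13% lower). The median log2 change was 0.12 over members and 0.02 over all genes. Under the 9 alternatives that kept all libraries, 10 to 14 members were called higher and 2 to 10 lower. On leaving out 1 library, most of the lower calls could be lost. Between liver and lymph node 18 members were called higher in liver and 10 lower, where 37.6% of all genes were called (18% and 19.6%), with medians of 0.10 and 0.01. The same alternatives gave 14 to 21 higher and 6 to 11 lower. Between spleen and lymph node 6 were called higher in spleen and 10 lower. Of all genes 18.3% were called (7.97% and 10.3%), and the medians were 0.04 and 0.00. Under the same alternatives 2 to 7 were called higher and 6 to 10 lower. When a library was left out, all of the higher calls could be lost, but not all of the lower ones. The 3 comparisons share libraries in pairs. With UMIs summed over a library, fewer cells that make a transcript and less of it per cell cannot be told apart.

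Of the 13 genes in the list of inducible HSF1 targets, 11 could be tested, Bag3 and Hspb1 being too low. In liver against spleen 7 of the 11 rose and none fell, with a median log2 change of 0.45. Of the 7, the calls of Hspa1a, Hspa1b, Hsph1 and Dnajb1 held under every alternative. Those of Hsp90aa1, Stip1 and Hspe1 were each lost on leaving out some library. In liver against lymph node 3 rose and 4 fell (median 0.19), and in spleen against lymph node none rose and 4 fell (median -0.30). In this order of comparisons, 63.6, 63.6 and 36.4% of the tested list were called, beside 25.7, 37.6 and 18.3% of all genes. Of the 10 constitutive cytosolic members, 2 rose and 1 fell in liver against spleen, 5 rose and 1 fell in liver against lymph node, and 1 rose and 1 fell in spleen against lymph node. That is 30, 60 and 20% of them, beside the same shares of all genes. Of all UMIs of a library, inducible genes took 0.258 ± 0.0288% (SD, n = 2) in liver, 0.189 ± 0.00191% in spleen, with 0.243 ± 0.00857% in lymph node, and constitutive cytosolic genes 0.591, 0.357 and 0.427%. As a part of member UMIs these were 19.5, 19.1 and 22.0% for inducible genes, against 44.8, 36.0 and 38.7% for constitutive ones.

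**Figure D3:**
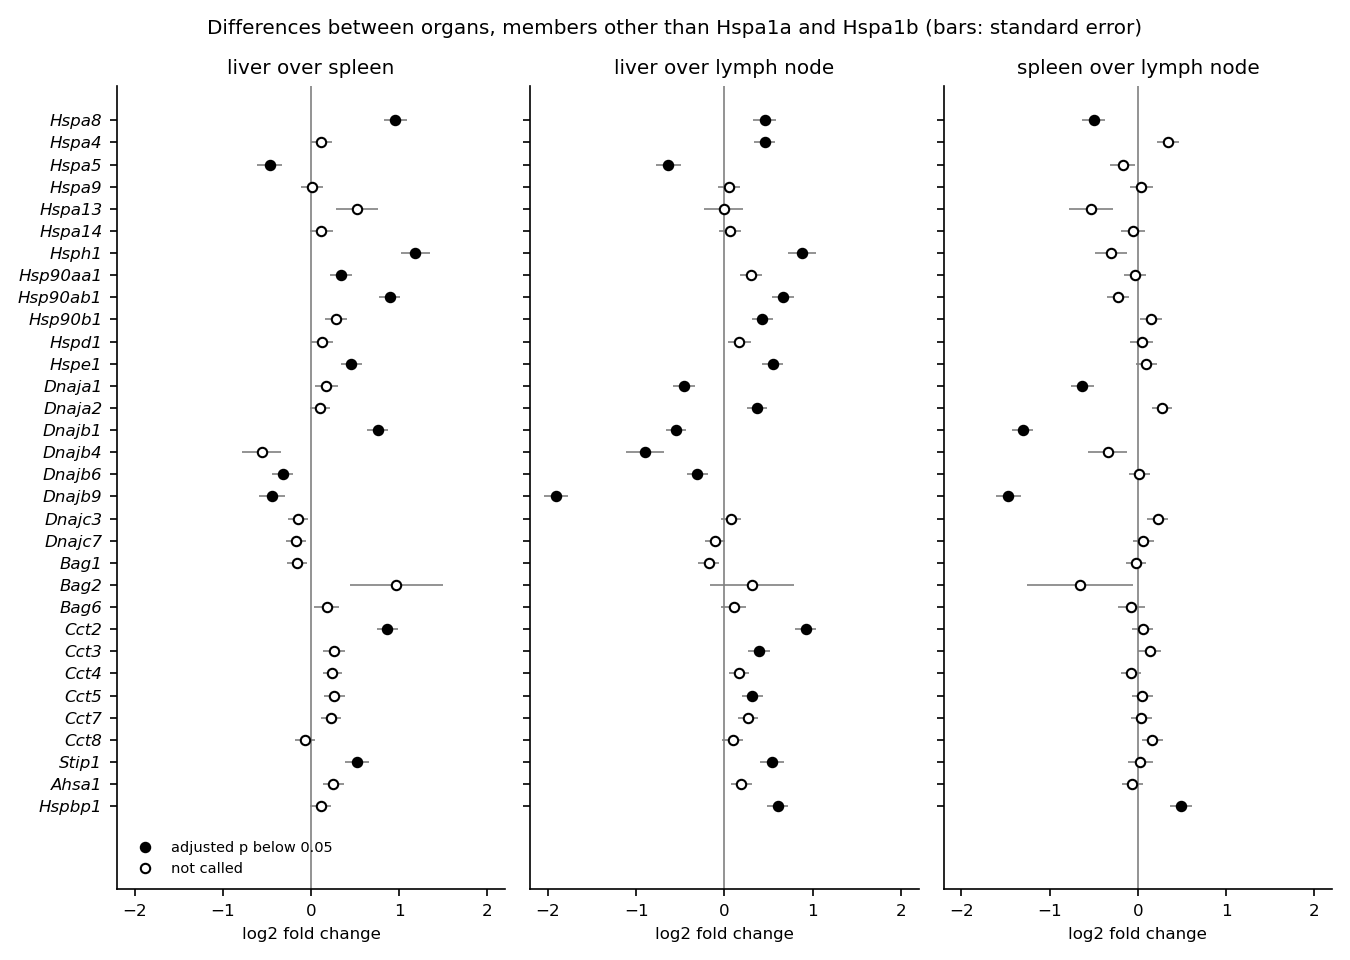
Log2 fold change (x axis) of the tested members of the fixed naming list other than Hspa1a and Hspa1b (y axis) in each organ comparison, with standard errors as bars and filled points for adjusted p under 0.05. Hspa8, Hsp90ab1, Hsph1 and Cct2 lie to the right of 0 in both comparisons of liver, and Dnajb9 is the plotted gene farthest to the left in the comparisons with lymph node, Hspa2 (farther left there) not being on that list or plotted.

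Among the HSP70 proteins, 4 of the 11 tested rose and 2 fell in liver against spleen, 3 rose and 4 fell against lymph node, and none rose and 5 fell in spleen against lymph node. That is 54.5, 63.6 and 45.5% of them, beside 25.7, 37.6 and 18.3% of all genes. Hspa8 rose by a log2 change of 0.95 in liver over spleen (SE 0.13, edgeR adjusted p = 2.01e-06) and by 0.45 over lymph node (SE 0.13, edgeR adjusted p = 0.00539), the latter call being lost without lymph node replicate 2 (adjusted p = 0.0653). It was lower in spleen than in lymph node by -0.50 (SE 0.13, edgeR adjusted p = 0.00507), which was lost without spleen replicate 2 (adjusted p = 0.197) or without lymph node replicate 1. Hsph1, the HSP110 nucleotide exchange factor that resets HSP70, was at 52.1 and 61.1 CPM in liver, 25.2 and 22.1 in spleen, against 27.8 and 31.5 in lymph node. Its log2 change was 1.18 over spleen (SE 0.16, edgeR adjusted p = 2.41e-06) and 0.88 over lymph node (SE 0.16, edgeR adjusted p = 3.68e-05), and both calls held under every alternative. The related Hspa4 was at 123 and 122 CPM in liver, 114 and 100 in spleen, against 82.3 and 89.4 in lymph node.

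The opposite order was found for Hspa2, best known from germ cells, which was low throughout at 1.70 and 1.65 CPM in liver, 3.90 and 3.63 in spleen, with 14.3 and 8.56 in lymph node. Its log2 change of -2.81 for liver over lymph node (SE 0.37, edgeR adjusted p = 2.64e-07) held under every alternative. That of -1.58 for spleen over lymph node (edgeR adjusted p = 0.00175) was lost without lymph node replicate 1 (adjusted p = 0.129) and within iNKT1-marker cells (adjusted p = 0.363). The mitochondrial Hspa9 (106 to 132 CPM), the ribosome-associated Hspa14 (69.4 to 81.2) and Hspa13 (9.87 to 16.0) were not called between any organs. The gene counted as Hspa14 carries the name Gm45902 in GENCODE vM21.

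All 3 HSP90 genes were tested, and 2 rose in each comparison of liver, where 25.7% (over spleen) and 37.6% (over lymph node) of all genes were called. Hsp90ab1, the constitutive cytosolic form, was at 1839 and 1866 CPM in liver, 978 and 917 in spleen, against 1185 and 1066 in lymph node, so that liver lay above the other organs with no overlap. It rose by 0.89 over spleen (SE 0.12, edgeR adjusted p = 2.14e-06) and by 0.66 over lymph node (SE 0.12, edgeR adjusted p = 4.55e-05). Hsp90aa1, the inducible form, was at 477 and 610, 393 and 424, and 431 and 419 CPM, and its log2 change of 0.34 over spleen (edgeR adjusted p = 0.0450) was lost when any of 5 libraries was left out, with an adjusted p up to 0.485 without liver replicate 2. Per 100 UMIs of Hsp90ab1 there were 26.0 and 32.7 of Hsp90aa1 in liver, 40.2 and 46.2 in spleen, against 36.4 and 39.3 in lymph node. The higher HSP90 level in liver was thus mostly that of the constitutive gene. Among the helpers of HSP90, Stip1, which hands clients over from HSP70, was at 127 and 127 CPM in liver, 101 and 67.3 in spleen, with 84.7 and 83.4 in lymph node. Its log2 changes were 0.52 over spleen (edgeR adjusted p = 0.00601), lost without spleen replicate 2 (adjusted p = 0.241), and 0.54 over lymph node (edgeR adjusted p = 0.00222). Ahsa1, which activates the HSP90 ATPase, was at 147 to 191 CPM and not called.

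The J-domain proteins deliver clients to HSP70. Of 37 tested, 4 rose and 4 fell in liver against spleen, 7 rose and 6 fell against lymph node, and 4 rose and 5 fell in spleen against lymph node. That is 21.6, 35.1 and 24.3% of them, beside 25.7, 37.6 and 18.3% of all genes. Dnajb1, the main HSF1-induced partner of HSP70, was at 166 and 164 CPM in liver, 96.9 and 88.3 in spleen, against 243 and 221 in lymph node. Its order was thus spleen, liver, lymph node, and each step was larger than the spread: the log2 change was 0.76 for liver over spleen (SE 0.12, edgeR adjusted p = 1.79e-05), -0.55 for liver over lymph node (SE 0.11, edgeR adjusted p = 2.26e-04) and, for spleen set over lymph node, -1.30 (SE 0.12, edgeR adjusted p = 2.61e-10). All 3 calls held under every alternative.

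Dnaja1, a farnesylated partner of HSP70, was at 563 and 717 CPM in liver, 537 and 541 in spleen, against 767 and 931 in lymph node. It fell by -0.63 in spleen against lymph node (SE 0.13, edgeR adjusted p = 6.46e-04), and its change of -0.46 in liver against lymph node (edgeR adjusted p = 0.00585) was lost without liver replicate 1 or lymph node replicate 2 (adjusted p = 0.157). Dnaja4 was at 24.3 and 22.2, 15.3 and 10.6, and 23.7 and 27.1 CPM, and so was lowest in spleen like Hspa1a, Hspa1b and Dnajb1. Its log2 changes were 0.76 for liver over spleen (edgeR adjusted p = 0.00737) and, for spleen set over lymph node, -0.94 (edgeR adjusted p = 0.00187), and without spleen replicate 2 both were lost (adjusted p = 0.143 and 0.0526).

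Some J-domain genes were highest in liver. Dnajc5, the cysteine string protein of secretory vesicles, was at 113 and 105 CPM in liver, 70.9 and 60.3 in spleen, with 61.5 and 61.6 in lymph node. It rose by 0.65 over spleen (SE 0.13, edgeR adjusted p = 2.54e-04) and 0.77 over lymph node (SE 0.13, edgeR adjusted p = 1.09e-05) under every alternative. Dnajc15, a J-domain protein of the mitochondrial inner membrane, was at 261 and 236, 205 and 162, and 139 and 134 CPM. It rose by 0.81 in liver over lymph node (SE 0.12, edgeR adjusted p = 1.81e-06), while its changes of 0.36 over spleen and 0.45 for spleen over lymph node were lost without spleen replicate 2 (adjusted p = 0.337) and without spleen replicate 1 (adjusted p = 0.203). Dnajc13, which acts on endosomes, was at 24.2 and 19.1, 16.4 and 15.6, and 9.71 and 10.2, with a log2 change of 1.06 over lymph node (SE 0.22, edgeR adjusted p = 2.91e-04). Dnajc8, a spliceosome-associated member, was instead highest in spleen, at 438 and 432 CPM against 340 and 324 in liver (log2 change -0.47, SE 0.11, edgeR adjusted p = 0.00245). Dnajb4 was at 11.7 to 24.8 CPM and fell by -0.90 in liver against lymph node (edgeR adjusted p = 0.00126), which was lost without lymph node replicate 2 (adjusted p = 0.0886). Dnaja2, at 173 to 241 CPM, rose by 0.37 in the same comparison (edgeR adjusted p = 0.00955), lost without liver replicate 2 or lymph node replicate 2 (adjusted p = 0.0970). Dnajb6, at 274 to 354 CPM, was lower in liver by -0.32 against spleen and by -0.31 against lymph node (edgeR adjusted p = 0.0426 and 0.0389), calls lost when any of 5 and of 3 libraries was left out (adjusted p up to 0.411 without spleen replicate 2 and 0.383 without lymph node replicate 2). Dnajc7, whose TPR repeats bind HSP70 and HSP90, was at 158 to 185 CPM and not called.

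In the endoplasmic reticulum group, none of the 11 tested rose and 2 fell in liver against spleen, 2 rose and 3 fell against lymph node, and 1 fell in spleen against lymph node. That is 18.2, 45.5 and 9.09% of them, beside 25.7, 37.6 and 18.3% of all genes. Dnajb9 (ERdj4), an IRE1-regulated partner of BiP, was at 33.3 and 40.0 CPM in liver, 44.2 and 50.3 in spleen, against 125 and 140 in lymph node. It fell by -1.91 in liver (SE 0.14, edgeR adjusted p = 3.59e-13) and by -1.47 in spleen (SE 0.14, edgeR adjusted p = 8.23e-10) against lymph node, and both calls held under every alternative. Its change of -0.44 between liver and spleen (edgeR adjusted p = 0.0271) was lost without liver replicate 1 (adjusted p = 0.286) or spleen replicate 2. Hspa5 (BiP), the HSP70 of this compartment, was at 334 and 477 CPM in liver, 562 and 505 in spleen, against 626 and 593 in lymph node. The liver libraries were the lowest and also differed most from each other, with a log2 change of -0.64 against lymph node (SE 0.14, edgeR adjusted p = 9.74e-04) and of -0.47 against spleen (SE 0.14, edgeR adjusted p = 0.0181), the latter lost without liver replicate 1 (adjusted p = 0.310) or spleen replicate 1.

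Hsp90b1 (GRP94), the HSP90 of this compartment, was highest in the liver libraries. It was at 332 and 407 CPM in liver, 310 and 268 in spleen, with 263 and 266 in lymph node, and its log2 change of 0.43 over lymph node (edgeR adjusted p = 0.00543) was lost without liver replicate 2 (adjusted p = 0.132) or lymph node replicate 2. Dnajc3, which binds unfolded protein in the lumen, was at 188 to 237 CPM and not called.

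Of the 6 CCT subunits tested, 1 rose in liver against spleen, 3 against lymph node and none between spleen and lymph node, and none fell. The shares called were 16.7, 50 and 0%, beside 25.7, 37.6 and 18.3% of all genes. Cct2 was at 231 and 220 CPM in liver, 125 and 109 in spleen, against 117 and 112 in lymph node, with log2 changes of 0.87 over spleen (SE 0.12, edgeR adjusted p = 1.55e-06) and 0.92 over lymph node (SE 0.12, edgeR adjusted p = 1.01e-07) that held under every alternative. Of the other subunits of the same ring, Cct4 was at 241 to 310, Cct5 at 255 to 354, Cct7 at 224 to 302 and Cct8 at 222 to 269 CPM over all libraries. The changes of Cct3 (0.39) and Cct5 (0.32) over lymph node were lost without lymph node replicate 2 (adjusted p = 0.291 and 0.292). Cct6b, the testis form of its subunit, had 32 UMIs in all, and Cct6a is not analysed here. Among mitochondrial members, Hspe1 (HSP10) was at 548 and 603 CPM in liver, 409 and 389 in spleen, against 405 and 353 in lymph node. It rose by 0.55 over lymph node (SE 0.12, edgeR adjusted p = 3.94e-04) and by 0.45 over spleen (SE 0.12, edgeR adjusted p = 0.00475), the latter lost without spleen replicate 2 (adjusted p = 0.0544). Its partner Hspd1 (HSP60), which shares the 3-unit element shown above, was at 154 to 221 CPM and not called between organs.

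The small heat shock list was drawn up by Hspb symbol, which does not show that each gene on it encodes such a chaperone. Its genes were low, and only Hspb7 and Hspb11 of the 8 could be tested. Hspb7 was at 3.53 and 3.95 CPM in liver, 8.57 and 5.31 in spleen, with 2.16 and 1.93 in lymph node. Its log2 change of 1.78 for spleen over lymph node (SE 0.44, edgeR adjusted p = 0.00368) was lost without spleen replicate 1 (adjusted p = 0.0962) or lymph node replicate 2. None of the 5 BAG proteins tested, nucleotide exchange factors of HSP70, was called in any organ comparison, with Bag1 at 175 to 220 and Bag6 at 41.3 to 57.2 CPM. Hspbp1, another exchange factor, was at 118 and 114 CPM in liver, 103 and 100.3 in spleen, against 77.2 and 69.8 in lymph node, with a log2 change of 0.60 for liver over lymph node (SE 0.12, edgeR adjusted p = 1.89e-04) that was lost within iNKT1-marker cells (0.35, edgeR adjusted p = 0.0772).

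Of pathway genes that are not members, the list of heat shock regulators and co-chaperones had 19 tested genes, of which 4 rose and 4 fell in liver against spleen, 2 rose and 4 fell against lymph node, and 3 fell in spleen against lymph node. That is 42.1, 31.6 and 15.8% of them, beside 25.7, 37.6 and 18.3% of all genes. The regulator Hsf1 was at 26.1 and 20.9, 23.9 and 20.1, and 20.8 and 18.8 CPM and was not called. Hsf2 was at 6.50 and 5.93, 9.09 and 10.9, and 21.3 and 17.9. Its log2 changes were -0.76 in liver over spleen (edgeR adjusted p = 0.0376) and -1.71 in liver over lymph node (edgeR adjusted p = 1.03e-06). In spleen over lymph node the change was -0.95 (edgeR adjusted p = 0.00565). Of 16 genes of the unfolded protein response, 3 rose and 2 fell in liver against spleen, 4 rose and 3 fell against lymph node, and 1 fell in spleen against lymph node. That is 31.25, 43.75 and 6.25% of them, beside the same shares of all genes.

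The immediate early genes, which respond within minutes to stimulation and handling, took their smallest share in liver and their largest in lymph node. The 16 genes of the list took 0.219% of UMIs in liver, 0.282% in spleen, with 1.05% in lymph node in the organ means. Of the 16 tested, 14 fell in liver and 15 in spleen against lymph node, with median log2 changes of -1.93 and -1.78. Liver and spleen differed by a median of -0.07 over genes that went both ways, with 1 higher and 6 lower in liver. That is 43.75% called, beside 25.7% of all genes, with Fos at -1.24, Dusp1 at -1.05 and Junb at -0.92. Hspa1a and Hspa1b were also lower in spleen than in lymph node. Between liver and spleen the pair was higher in liver, whereas the share of immediate early RNA was lower in liver. The part of handling in these levels was not tested.

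To compare cells of unequal depth, each cell was thinned to 1000 UMIs, which left out 0 and 9 cells in liver, 144 and 169 in spleen, with 265 and 488 in lymph node. Unlike the CPM values, this draw included ribosomal and haemoglobin genes. These took 34.9 and 32.6% of UMIs in liver, 29.1 and 28.5% in spleen, against 27.7 and 23.9% in lymph node. Thinned liver cells thus held on average fewer UMIs of the remaining genes. At this depth 4.28% (exact binomial 95% interval 3.56 to 5.10) and 4.63% (3.89 to 5.46) of liver cells held a UMI of Hspa1a or Hspa1b. In spleen these were 0.193% (0.0628 to 0.451), 5 of 2585 cells, and 0.0402% (0.00102 to 0.224), 1 of 2486. In lymph node they were 4.55% (3.75 to 5.47) and 4.53% (3.73 to 5.45). The shares in liver and lymph node overlapped and those in spleen lay below both. Without thinning they were 12.995 and 12.793% in liver, 0.293 and 0.0377% in spleen, against 6.82 and 6.00% in lymph node. By contrast Hspa8 was found in 78.5 and 79.8% of thinned cells in liver, 63.1 and 56.5% in spleen, against 72.6 and 74.6% in lymph node, and Dnajb1 in 11.17 and 11.04%, 7.20 and 6.52%, and 17.2 and 15.1%. No cell type known to lack the pair was among the cells, so the part of free RNA in these shares was not tested. The intervals cover counting error only, and a cell without a UMI at this depth can still hold the transcript.

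Within liver and lymph node, UMIs of the pair were unevenly spread over cells. The variance of Hspa1a plus Hspa1b UMIs over thinned cells was 1.33 and 1.15 times the mean in liver and 1.62 and 1.57 times in lymph node, and single unthinned cells held up to 8 and 5 UMIs in liver, 2 and 1 in spleen, with 15 and 7 in lymph node. Hspa1a and Hspa1b were found together in 35 thinned cells of the 4 libraries, where the product of their shares gives 5.87 cells. For Hsp90aa1 with Hsp90ab1 the ratio of cells with both to that product was 1.08 and for Cct2 with Cct5 1.02. This ratio has a ceiling that falls as the commoner gene is found in more cells. In the first liver library Hsp90ab1 was found in 1803 of 2801 thinned cells, Cct5 in 558 and Hspa1b in 71. The ratios of these pairs can therefore not be ranked against each other. With Dnajb1 the ratio was 1.15 to 1.57 for Hspa1b in the 4 libraries. For Hspa1a it was 1.21 and 0.776 in liver and 1.09 and 1.74 in lymph node, so the libraries differed in direction for Hspa1a. Thinned cells with a UMI of the pair were also set against those without for immediate early genes. Jun was higher per cell with the pair in 4 of 4 libraries (ratios 1.19 to 1.70). Fos (1.14 to 1.19) and Fosb (1.49 to 1.91) were higher in the 2 libraries where they were compared. Each of the others compared, among them Junb (higher in 2 of 4) and Dusp1 (1 of 4), was higher in some libraries and lower in others. Cells of a library are not replicates, so these values are a description.

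**Figure D4:**
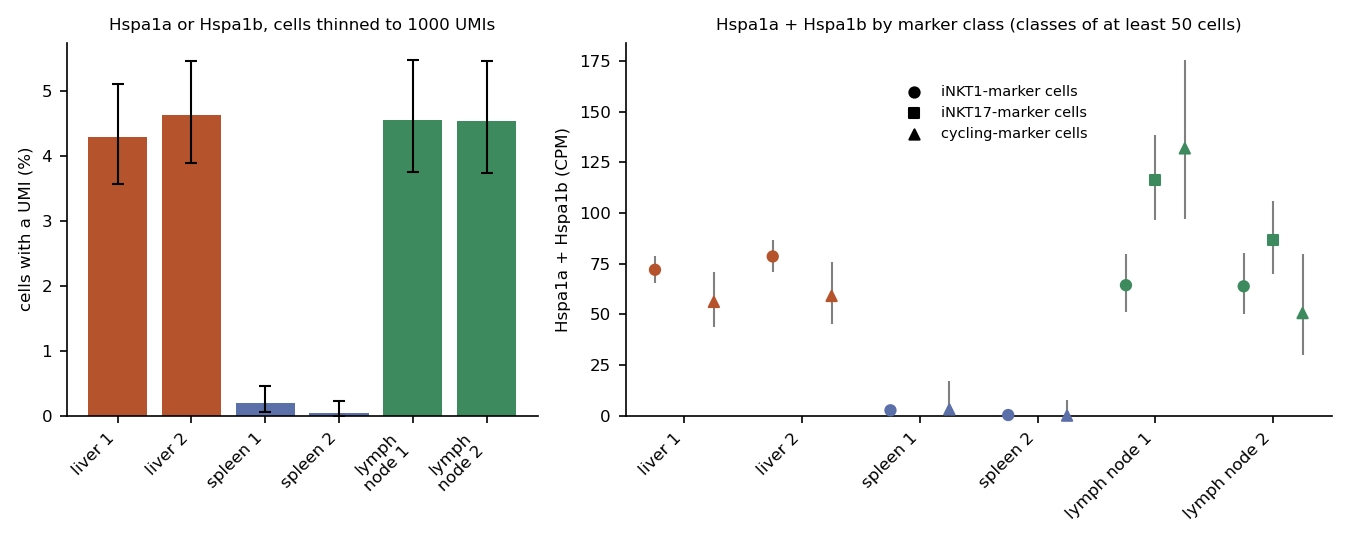
Left, share of cells thinned to 1000 UMIs with a UMI of Hspa1a or Hspa1b (%) in each library, with exact binomial 95% intervals; right, CPM of both genes by marker class and library, for classes of at least 50 cells, with exact Poisson 95% intervals. Both spleen libraries lie near 0 in each class shown, and iNKT17-marker cells are shown for lymph node alone.

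Cells were then split by markers that are not members. Cells with UMIs of at least 2 iNKT1 markers (such as Tbx21, Il2rb and Nkg7) and fewer than 2 iNKT17 markers (such as Il23r and Ccr6) were set against the reverse, with each library as a block. Only the spleen and lymph node libraries had 10 or more iNKT17-marker cells, 28 and 11 in spleen, against 706 and 807 in lymph node. In liver 307 and 336 cells held at least 2 iNKT17 markers. Of these, 305 and 331 also held at least 2 iNKT1 markers and so entered no class. In lymph node 222 and 196 cells held at least 2 of both, and 729 and 889 fewer than 2 of both. In iNKT1-marker cells Hspa1a and Hspa1b together were at 72.0 and 78.5 CPM in liver, 2.65 and 0.317 in spleen, against 64.4 and 63.8 in lymph node, so the gap to spleen was present within this class. In iNKT17-marker cells they were at 116 and 86.5 in lymph node and at 0 in spleen, where a count of 0 allows up to 67.4 and 190 CPM. The first of these limits lay below both lymph node values and the second above them.

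Of 65 members tested between these classes, 2 were called higher and 2 lower in iNKT17-marker cells, where 16.4% of all 8450 genes were called (7.35% higher, 9.04% lower). Hspa1b was at 58.1 and 36.0 CPM in iNKT17-marker cells of lymph node against 27.5 and 19.2 in iNKT1-marker cells (log2 change 0.94, SE 0.25, edgeR adjusted p = 0.00205). The other 3 were Dnajb14 (0.72, adjusted p = 0.0451), Dnajb1 (-0.37, adjusted p = 0.00885) and Hspa5 (-0.33, adjusted p = 0.0405), and Hspa1a was at 0.36 (adjusted p = 0.313). Without lymph node replicate 1 or without lymph node replicate 2 no member was called by edgeR, with 4 and 2 members at an unadjusted p under 0.05. DESeq2 also called none, with 4 at an unadjusted p under 0.05. These 4 calls therefore rest on both lymph node libraries. Of the 19 regulators and co-chaperones tested that are not members, 3 rose and 1 fell in iNKT17-marker cells (21.1%, beside 16.4% of all genes). Hsf2 was among the 3, at a log2 change of 1.19 (SE 0.33, edgeR adjusted p = 0.00255).

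Cells with UMIs of at least 2 cycling markers (such as Mki67, Top2a and Cdk1), which also carried more RNA, were set against cells with none. The cycling-marker cells held a median of 3808 to 4938 UMIs against 1426 to 3441 in the others. Of 69 members tested, 22 rose and 7 fell in cycling-marker cells, where 32.3% of all 9829 genes were called (16.7% higher, 15.7% lower), and the median log2 change was 0.05 over members and -0.06 over all genes. All 3 HSP90 genes, all 6 CCT subunits tested, 6 of 11 HSP70 genes and 3 of 7 mitochondrial members rose, while 3 J-domain genes rose and 7 fell of 36 tested. Most of these counts depended on the cells with the most UMIs: without the top 2% of each library all 3 HSP90 genes still rose, but only 1 of the 6 CCT subunits, 0 of 11 HSP70 genes and 1 of 7 mitochondrial members did, and 2 J-domain genes rose and 2 fell of 37. With DESeq2 on all cells, 18 of the 69 members rose and 1 fell. Of the 36 J-domain genes, 3 then rose and 1 fell, so most lower calls were lost.

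Dnajc9, a histone chaperone that recruits HSP70, was at 204 and 215 CPM in cycling-marker cells of liver, 271 and 346 in spleen, with 227 and 354 in lymph node. In the other cells it was at 96.2 and 93.9, 105 and 112, and 104 and 120, so it was higher in 6 of 6 libraries (log2 change 1.35, SE 0.08, edgeR adjusted p = 1.01e-19). Hsp90aa1 was at 688 and 885, 878 and 858, and 729 and 815 CPM in cycling-marker cells against 410 and 528, 334 and 348, and 386 and 369 (log2 change 1.05, SE 0.08, edgeR adjusted p = 3.33e-12). Hspd1 (0.83), Hsp90b1 (0.67), Dnajc2 (0.63), Hsp90ab1 (0.58), Stip1 (0.51) and Cct8 (0.49) rose by less. Dnajb9 was the member that fell most, at 30.4 and 25.6, 27.7 and 24.9, and 64.5 and 64.6 CPM in cycling-marker cells against 33.0 and 45.2, 45.7 and 56.4, and 137 and 150 (log2 change -0.80, SE 0.14, edgeR adjusted p = 6.23e-06). Hspa1a and Hspa1b were at -0.14 (edgeR adjusted p = 0.630) and -0.30 (edgeR adjusted p = 0.267) and were not called.

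With the 2% of cells with the most UMIs left out of each library, 7 members stayed higher and 2 lower of 69, where 15.1% of all 9683 genes were called. The 7 were Dnajc9 (0.92), Hsp90b1 (0.54), Hsp90aa1 (0.53), Hspd1 (0.40), Dnajb11 (0.38), Hsp90ab1 (0.26) and Cct8 (0.25), and the 2 were Dnajb9 (-0.50) and Dnaja1 (-0.25). The part of cell size or of droplets with more than 1 cell in the remaining calls was not tested.

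**Figure D5:**
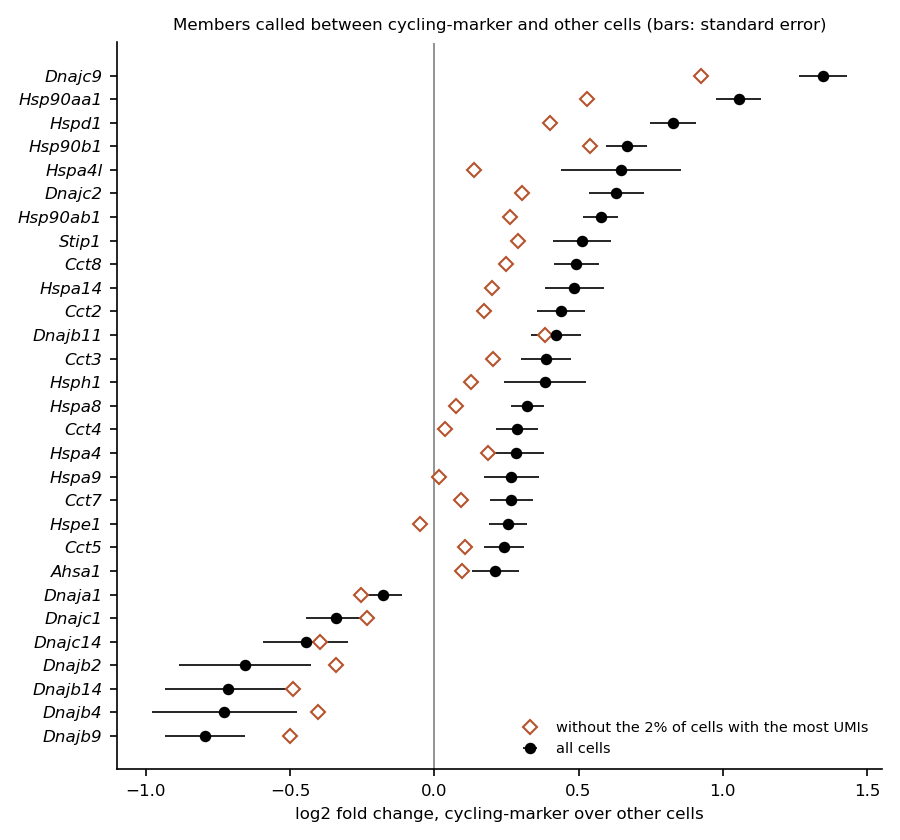
Log2 fold change (x axis) of the 29 members called between cycling-marker and other cells (y axis), with points and standard errors for all cells and open diamonds after leaving out the 2% of cells with the most UMIs in each library. Dnajc9 and Hsp90aa1 are the farthest right among the filled points, and Hspe1 crosses 0 when those cells are left out.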

How the data were processed

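The authors deposited counts from Cell Ranger (3.1.0, build mm10, per the labels), 1 matrix of UMI counts per library beside gene and barcode lists; Seurat is also named in their processing notes. Which annotation was used is not given in the sources used here. Cells with under 300 or over 4000 genes or over 15% mitochondrial UMIs were removed, as were 183 ribosomal, ribosomal RNA and haemoglobin genes (23.9 to 34.9% of UMIs). No doublet caller was run, and leaving out the 2% of cells with the most UMIs stands in its place as an alternative.

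Counts were summed per library, or per library and marker class (at least 10 cells), and tested with edgeR 4.0.16 (filterByExpr with a minimum count of 10, TMM, robust quasi-likelihood fit) in R 4.3.3, with organ as the only term and all 6 libraries in each organ fit, or with library as a block for classes. P-values were adjusted by Benjamini-Hochberg over all genes tested and called under 0.05; all comparisons were two-sided. DESeq2 1.42.0, RLE scaling, no filter, thinned libraries, all barcodes, ribosomal genes kept, iNKT1-marker cells alone, a replicate block and leaving out each library were alternatives. In an organ fit without a library, its organ held a single library, and the spread came from the libraries of the other organs. Shares of cells came from SciPy 1.17.1 and NumPy 2.4.6. Members, lists and tests were chosen with earlier results of these data known. The naming rule takes a fixed list of chief members plus, per comparison and direction, the 5 members called with the largest change and at least 50 UMIs; Dnaja4, Dnajc2, Dnajb11 and Hspb11 were named after their values were seen, as were the members with too few UMIs to test.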

Additional observations from a re-analysis of the deposited data

How the results depend on the processing

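Calls of members were counted again under each alternative. The 20 called between liver and spleen became 12 with DESeq2 and 11 to 17 on leaving out 1 library (13 without liver replicate 1, 11 without spleen replicate 2). The 28 between liver and lymph node became 14 to 29 on leaving out 1 library, with 14 without lymph node replicate 2. The 16 between spleen and lymph node became 8 in iNKT1-marker cells alone and 8 to 16 on leaving out 1 library (9 without spleen replicate 1, 10 without spleen replicate 2, 8 without lymph node replicate 2). The 4 between iNKT17-marker and iNKT1-marker cells became 0 with DESeq2 (4 at an unadjusted p under 0.05), 2 without a filter on low counts, 9 in lymph node libraries alone and 0 to 8 on leaving out 1 library (8 without spleen replicate 2, 0 without lymph node replicate 1 or 2, with 4 and 2 at an unadjusted p under 0.05). The 29 between cycling-marker and other cells became 19 with DESeq2, 9 without the 2% of cells with the most UMIs and 23 to 28 on leaving out 1 library. The share of all genes called moved as well. With DESeq2 it was 14.0% between liver and spleen, 5.22% between subsets and 23.0% in cycling-marker cells, in iNKT1-marker cells alone it was 8.47% between spleen and lymph node, and without the 2% of cells with the most UMIs it was 15.1% in cycling-marker cells. On leaving out 1 library it was 13.01 to 23.1%, 23.0 to 38.3%, 9.77 to 18.3%, 5.13 to 18.3% and 27.8 to 30.2% in these comparisons, in the order given. Hspe1 reversed in cycling-marker cells without the 2% of cells with the most UMIs, to -0.049 on the log2 scale. Replicate numbers share no stated litter or day, and same-numbered libraries deviated together only weakly (correlations 0.0849, 0.0829 and 0.0678), so they were not taken as pairs; with the replicate block 24, 32 and 17 members were called between liver and spleen, liver and lymph node, and spleen and lymph node.

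Shares of cells moved with depth. The mean share with a UMI of Hspa1a or Hspa1b was 4.46% in liver and 4.54% in lymph node at 1000 UMIs, 6.64 and 5.39% at 1500, and 12.9 and 6.41% unthinned. For Hspa8 the shares at 1500 UMIs and unthinned were 91.0 and 97.4% (liver), 74.1 and 75.8% (spleen) or 84.3 and 84.7% (lymph node cells). With ribosomal genes kept in the total, members took 0.876% of UMIs (liver), 0.705% (spleen) or 0.819% (lymph node). Of the calls counted first, 9 of 20, 12 of 28 and 5 of 16 between organs, 0 of 4 between subsets and 8 of 29 in cycling-marker cells held under every alternative. Depth limits Hspa1b in spleen, where 1 library had no UMI, and iNKT17-marker cells of spleen.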

Other observations

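Genes that work with the chaperones but carry other names also differed between cycling-marker and other cells. Of 19 regulators and co-chaperones tested, 9 rose and 3 fell, where 32.3% of all genes were called. Tcp1, the CCT subunit that the symbol rule leaves out, rose by a log2 change of 0.55 (SE 0.08, edgeR adjusted p = 1.55e-07), beside the prefoldin subunit Pfdn6 (0.54) and the HSP90 co-chaperone Ptges3 (0.47). Without the 2% of cells with the most UMIs these changes were 0.27, 0.35 and 0.28, and 3 genes of the list were called higher and 2 lower. Of 16 genes of the unfolded protein response 7 rose and 2 fell, against 1 and 2 without those cells. Sdf2l1, a partner of BiP complexes, was the 1 called higher in both, at 1.12 (SE 0.08, edgeR adjusted p = 1.21e-16) and 0.76. Of 16 immediate early genes none rose and 13 fell, against 10 without those cells, with Fos at -1.23 and -1.10 and Ppp1r15a, which restores translation after stress, at -1.24 and -1.05. These lists were chosen with earlier results known, and no hypothesis was tested on them.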
